A study of Mus musculus with 57 samples.

Results

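The genes described here are 9 genes of the smooth muscle contractile apparatus and of the response to serum: Acta2, Actg2, Tagln, Cnn1, Myl9, Tpm1, Tpm2, Ankrd1 and Thbs1. They were listed by symbol, and all 9 were found among the 55450 genes of the count table through GENCODE M21. The 57 bulk RNA-seq libraries came from mouse embryonic stem cells of a double reporter line, Sox1-EGFP/FoxA2mCherry, in which EGFP reports the neuroectoderm gene Sox1 and mCherry the endoderm gene FoxA2. The line is 1 clone, made in the Sox1-EGFP line 46C. There were 19 conditions with 3 replicates each, and 13 of the conditions (39 libraries) were cells sorted by both reporters and 6 (18 libraries) were progeny of sorted cells.

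Day 0 (D0) cells were Sox1-FoxA2- cells in SerumLIF, the self-renewal medium with serum and the cytokine LIF. Sorted cells of day 2, 4 and 6 (D2, D4, D6) came from serum-free N2B27 medium with 1 uM retinoic acid (RA), in the 4 gates Sox1-FoxA2-, Sox1+FoxA2-, Sox1-FoxA2+ and Sox1+FoxA2+. For progeny, cells of the last 3 of these gates were sorted on D2, replated on gelatin in the serum medium without LIF but with 1 uM RA, and harvested without a second sort on D4 or D6, so 2 or 4 days later. All cells after D0 had therefore received RA. Progeny and sorted cells differ in basal medium with serum, in sorting and replating, and in the missing second sort, and these cannot be told apart. No progeny of the Sox1-FoxA2- gate was measured. The study calls its replicates biological, and neither it nor the labels say how separate the cultures were, so the p-values measure the spread between these libraries.

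In smooth muscle cells the force of contraction comes from myosin pulling on actin filaments, and the same filaments form stress fibres in fibroblasts and other spreading cells. Many genes of these filaments carry binding sites for serum response factor (SRF), a transcription factor that works with cofactors of the myocardin family. Some of these cofactors enter the nucleus when actin polymerises, as it does after serum or on a stiff surface. YAP and TAZ, which bind DNA through TEAD factors, answer to the same mechanical inputs. Smooth muscle actin and its partners also appear transiently in fibroblasts, in embryonic mesoderm and in cultured mesenchyme, so that none of the 9 genes marks smooth muscle alone.

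Acta2 (ENSMUSG00000035783.9, GRCm38 chr19:34241090-34255590, minus strand) encodes smooth muscle alpha-actin and Actg2 (ENSMUSG00000059430.14, chr6:83512905-83536265, minus) the gamma-actin of visceral smooth muscle. Tagln (ENSMUSG00000032085.5, chr9:45929619-45936058, minus) encodes transgelin and Cnn1 (ENSMUSG00000001349.5, chr9:22099216-22109630, plus) calponin 1, both of which bind actin filaments. Myl9 (ENSMUSG00000067818.6, chr2:156775420-156781658, plus) encodes a regulatory light chain of myosin II. Tpm1 (ENSMUSG00000032366.15, chr9:67022590-67049406, minus) and Tpm2 (ENSMUSG00000028464.16, chr4:43514711-43523765, minus) encode tropomyosins, which lie along the actin filament. Ankrd1 (ENSMUSG00000024803.9, chr19:36111961-36120099, minus) encodes an ankyrin repeat protein that is a common readout of YAP and TEAD activity. Thbs1 (ENSMUSG00000040152.8, chr2:118111876-118127133, plus) encodes thrombospondin 1, a secreted matrix protein that serum induces. All are annotated as protein coding.

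Because the genes moved together, their promoters are shown where a script found a motif of the factors named above. RefSeq promoters (GRCm38.p6, 250 bases before the annotated start, both strands searched) matched 6 of the 9 genes, and Actg2, Tagln and Thbs1 had no entry. The motifs were the CArG box, which SRF binds, the same box with at most 1 G or C in its core, and GGAATG, a TEAD motif. The capitals below mark the motif, and each line gives the strand of the gene, 5′ to 3′.
Myl9 at chr2:156775291-156775320: tgcaagcagaggCCTAATAAGGccgggctg
Myl9 at chr2:156775353-156775382: cgcattcttctgCCTTGTAAGGccgggcgg
Acta2 at chr19:34255440-34255469: ttgtgctgaggtCCCTATATGGttgtgtta
Acta2 at chr19:34255390-34255419: cccgtctttgctCCTTGTTTGGgaagcgag
Acta2 at chr19:34255502-34255531: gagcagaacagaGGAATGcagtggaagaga
Ankrd1 at chr19:36119950-36119979: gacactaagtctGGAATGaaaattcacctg
Ankrd1 at chr19:36120037-36120066: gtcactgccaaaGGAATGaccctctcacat
Tpm1 at chr9:67049252-67049281: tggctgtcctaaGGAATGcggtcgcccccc
The first Myl9 line holds the exact CArG box, which 1 of the 6 matched promoters had, and the other boxes have 1 G or C in the core. The looser box was in 2 of the 6 promoters (Acta2 and Myl9) and GGAATG in 3 (Acta2, Ankrd1 and Tpm1). Of all 32851 RefSeq promoters in the table, 1.467% held the exact box, 8.593% the looser box and 12.64% GGAATG. None of the 3 was found in the windows of Cnn1 and Tpm2. The stretches of Acta2, Ankrd1 and Tpm1 lie within annotated exons of the same gene in GENCODE M21, whose start is farther upstream than that of RefSeq. Those of Myl9 lie outside annotated exons. A match is a description of the letters and no measurement of binding.

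Depth ran from 10170632 to 81845651 counts per library, with medians of 36162433 in sorted and 38685627 in progeny libraries. Levels are given in CPM, the count of a gene in relation to the total of its library, scaled by the TMM method over all 57 libraries, and 3 counts correspond to 0.038 to 0.405 CPM in D4 progeny and to 0.0477 to 0.102 CPM in sorted D4 cells. The table behaves as if reads had been counted over whole gene spans without regard to strand and dropped where genes overlap: all 13127 genes whose span lies within other genes had 0 counts in every library. Tagln shares 57.997% of its span with genes on the other strand, so its level is understated, and Thbs1 shares 3.913%. The other 7 genes share none. Srf itself, and 10 other genes of the lists used further on, were listed at 0 in every library, which in 10 of these 11 genes goes with a span wholly shared. Sox1 is among them, so the Sox1 gates cannot be checked against its own counts. The 6 pluripotency markers summed to 782 to 2158 CPM in the D0 cells, which are labelled as embryonic stem cells.

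All 9 genes had a higher mean level in progeny than in sorted cells. Per kilobase of annotated exon, Tpm1 had the highest mean level, 444 CPM per kb over the 18 progeny libraries and 55.5 over the 39 sorted libraries. Acta2 followed with 359 CPM per kb in progeny against 7.87 in sorted cells, so that it lay near Tpm1 in progeny and near Myl9 (7.51) in sorted cells. The mean levels in progeny were then 105 CPM per kb for Tpm2, 61.9 for Myl9, 56.3 for Thbs1, 37.2 for Cnn1 and 16.9 for Actg2. Tagln, with 5.85, and Ankrd1, with 5.12, were the lowest. The value of Tagln is understated, since 67.857% of its exon bases are shared with other genes, so its place in this order is not known. All values were divided by full exon length, although the counts behave as counts over whole gene spans. In sorted cells some of the genes were barely measured: Ankrd1 had no count in 18 of the 57 libraries and Tagln in 17, while Tpm1, Tpm2 and Thbs1 had counts in all.

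**Figure D1:**
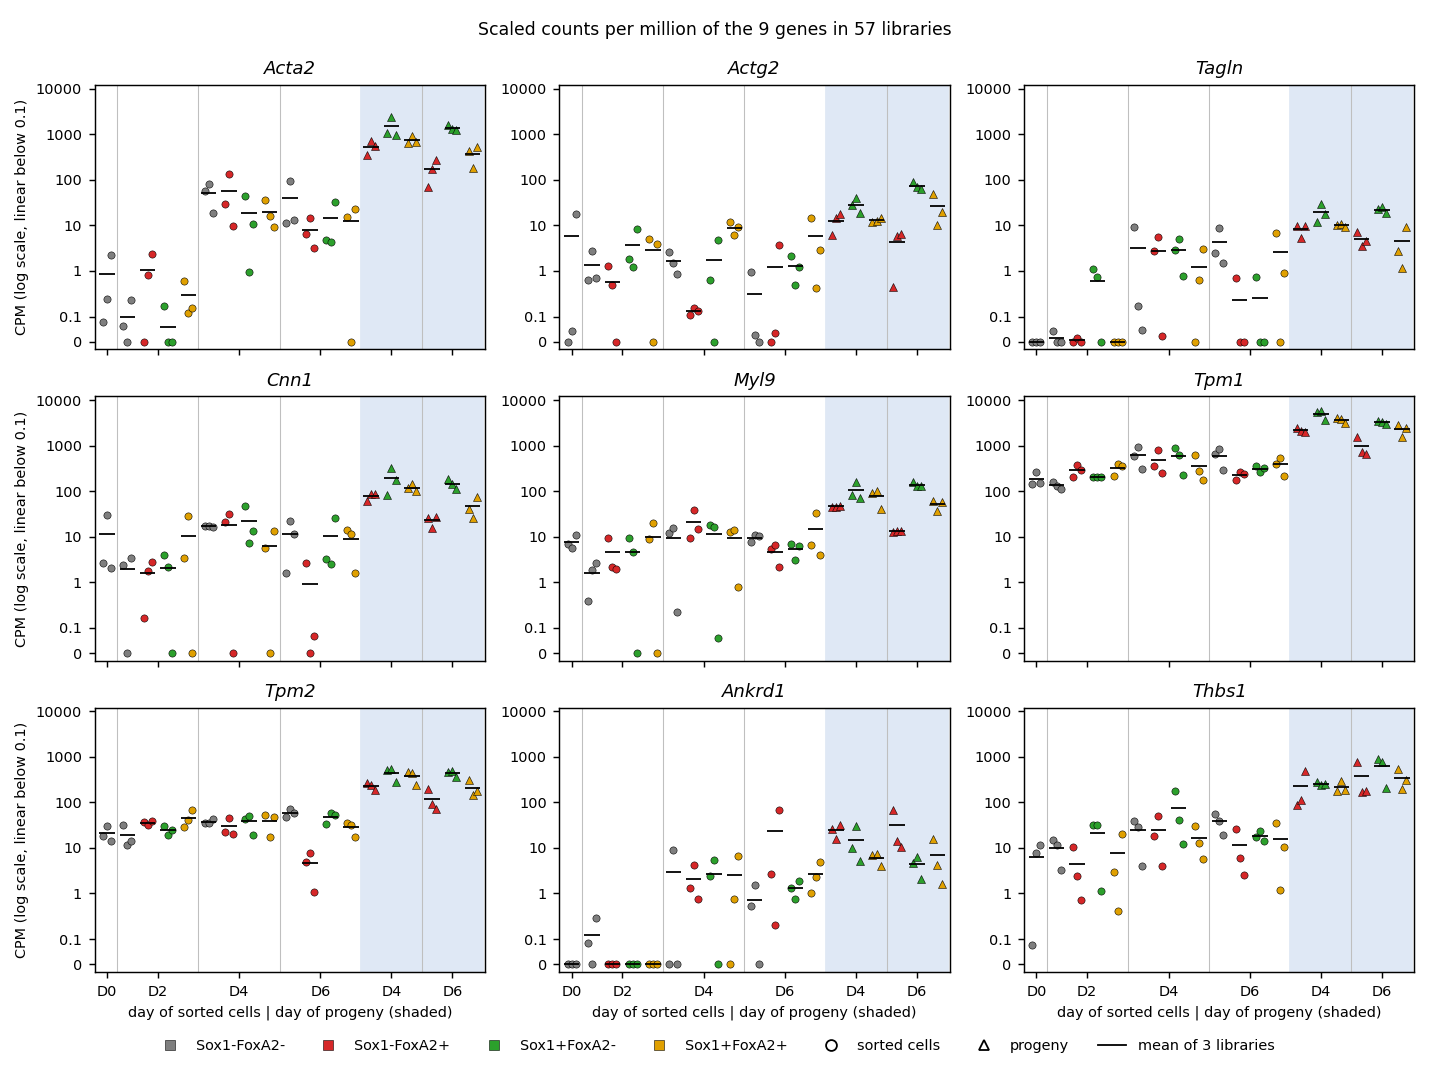
Level of each of the 9 genes in all 57 libraries (CPM, TMM-scaled, on an axis that is linear near 0 and logarithmic above), 1 point per library, with the 19 conditions along the horizontal axis and the progeny conditions shaded. In 6 of the 9 genes the 6 progeny conditions have the 6 highest means; Actg2, Myl9 and Ankrd1 are the exceptions.

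Ordered by the mean of each condition, the 6 progeny conditions took the 6 highest places of 19 for Acta2, Tagln, Cnn1, Tpm1, Tpm2 and Thbs1. Actg2 and Myl9 broke this order through D6 Sox1-FoxA2+ progeny, which stood at place 9 for Actg2 and place 8 for Myl9. Ankrd1 broke it through sorted D6 Sox1-FoxA2+ cells at place 3, whose mean of 23.6 CPM came from replicate 3 with 67.9 CPM beside 2.69 and 0.204. Of the 9 genes, 8 were highest in Sox1+FoxA2- progeny, Acta2, Cnn1, Tpm1 and Tpm2 on D4 and Actg2, Tagln, Myl9 and Thbs1 on D6. Ankrd1 was highest in D6 Sox1-FoxA2+ progeny, where its 3 libraries had 68.4, 14.3 and 10.7 CPM. Neighbours in these orders often did not differ beyond their spread. Acta2, for example, had means of 1502 ± 831 CPM in D4 and 1409 ± 194 in D6 Sox1+FoxA2- progeny (SD, n = 3 each).

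The first comparison asked whether the genes differ between progeny and cells sorted on the same day. On D4, 7 of the 9 genes rose in progeny over the 3 gates, against 3.49% of the 24857 genes tested that were called higher, and the 2 others, Tagln and Ankrd1, had positive differences that did not pass. The median log2 difference of the 9 genes was 2.86, and that of all genes tested -0.21. The 9 genes were chosen with earlier results of these data known. Setting their calls and medians beside those of all genes therefore describes them and is no test, here and below. Differences are from edgeR's quasi-likelihood test as the mean over the gates of the log2 difference within each gate, with a standard error (SE), and are no ratios of the mean levels. Genes were called at a Benjamini-Hochberg adjusted p below 0.05 over all genes tested.

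Acta2 ranged from 344 to 2460.4 CPM in the 9 D4 progeny libraries, with a median of 714. In the 9 sorted D4 libraries of the same gates it ranged from 0.953 to 131 with a median of 15.8. Every progeny library was above every sorted library, and the log2 difference was 4.84 (SE 0.53, edgeR adjusted p = 2.5e-06), or 28.6-fold. Actg2, the other smooth muscle actin, had 6.22, 14.8 and 39.02 CPM (lowest, median and highest) in progeny and 0, 0.637 and 11.6 in sorted cells. The groups overlapped only in the sorted Sox1+FoxA2+ cells, which had 11.6, 6.21 and 9.1 CPM and were the only sorted D4 gate of the 3 with all libraries above 5 CPM. Its log2 difference of 3.55 (SE 0.66, edgeR adjusted p = 0.00143) averaged gates with very different values, and it was 4.51 without replicate 3 of sorted D4 Sox1+FoxA2- cells. That of Acta2 was 5.48 without replicate 1 of the same gate.

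The tropomyosins had the smallest errors. Tpm1 had 2033, 3604 and 5613 CPM (lowest, median and highest) in D4 progeny and 173, 363 and 899 in sorted cells, with no overlap and a log2 difference of 2.79 (SE 0.26, edgeR adjusted p = 3.64e-07). Tpm2 had 183, 284 and 549 CPM against 17.7, 44.2 and 52.7, again with no overlap, and a log2 difference of 3.16 (SE 0.26, edgeR adjusted p = 4.62e-08). Both were therefore expressed in sorted cells already and rose further in progeny.

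Cnn1 had 61.6, 101 and 323 CPM in D4 progeny against 0, 13.5 and 46.8 in sorted cells, and Myl9 had 40.1, 70.2 and 158 against 0.0581, 14.01 and 39.2. Neither gene overlapped between the groups, although for Myl9 the lowest progeny library lay just above the highest sorted one. The log2 differences were 3.05 (SE 0.71, edgeR adjusted p = 0.00897) for Cnn1 and 2.38 (SE 0.55, edgeR adjusted p = 0.00861) for Myl9. In all, 5 of the 9 genes did not overlap between the 9 progeny and 9 sorted libraries, Acta2, Cnn1, Myl9, Tpm1 and Tpm2, where 0.805% of all genes tested lay wholly higher in progeny.

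Thbs1 had 89.7, 242 and 500.1 CPM in D4 progeny and 4.08, 17.9 and 175 in sorted cells, where the 175 CPM of Sox1+FoxA2- replicate 1 lay within the progeny range. It rose by a log2 difference of 2.86 (SE 0.47, edgeR adjusted p = 0.00035). Tagln had 5.36, 10.3 and 29.8 CPM against 0, 2.79 and 5.45, and Ankrd1 4.11, 9.8 and 32.1 against 0, 1.34 and 6.74. These 2 genes overlapped little between the groups but did not pass the test, with log2 differences of 2.34 (SE 0.81, edgeR adjusted p = 0.0807) for Tagln and 2.33 (SE 0.86, edgeR adjusted p = 0.0988) for Ankrd1. Without replicate 3 of sorted D4 Sox1+FoxA2+ cells both were called, at adjusted p of 0.0326 and 0.0276.

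On D6, 8 of the 9 genes rose in progeny, against 7.04% of the 25515 genes tested called higher, and Ankrd1 did not pass. The median log2 difference was 3.48, and that of all genes -0.21. Acta2 ranged from 68.8 to 1629.9 CPM in the 9 progeny libraries, with a median of 426, against 0, 6.44 and 33.5 CPM in the sorted libraries of the same gates. It did not overlap between the groups and rose by a log2 difference of 5.18 (SE 0.63, edgeR adjusted p = 9.1e-06), or 36.1-fold.

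Thbs1 had a log2 difference of 4.71 on D6 (SE 0.55, edgeR adjusted p = 4.42e-06), next to Acta2 the largest of the 9 genes. Its 9 progeny libraries ran from 171 to 876 CPM with a median of 312, and its sorted libraries from 1.21 to 36.1 with a median of 13.9. Tpm1 had 659.9, 2468 and 3543 CPM against 177, 259 and 544, and Tpm2 72.0, 193 and 483 against 1.1, 32.6 and 57.5. With Acta2, these were the 4 genes without overlap between the groups on D6, where 1.13% of all genes tested lay wholly higher in progeny.

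The tropomyosins rose on D6 by log2 differences of 2.58 for Tpm1 (SE 0.20, edgeR adjusted p = 1.31e-08) and 3.48 for Tpm2 (SE 0.30, edgeR adjusted p = 6.22e-08). Myl9 rose by 2.60 (SE 0.34, edgeR adjusted p = 1.75e-05), from a sorted median of 6.11 CPM to a progeny median of 56.7. Cnn1 rose by 3.48 (SE 0.63, edgeR adjusted p = 0.000594), from a median of 2.69 to 39.8 CPM. In each gene the highest sorted library, 33.4 CPM for Myl9 and 25.5 for Cnn1, lay above the lowest progeny library, which came from the Sox1-FoxA2+ gate.

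Actg2 rose by 3.06 on D6 (SE 0.80, edgeR adjusted p = 0.0121) and Tagln by 3.73 (SE 1.14, edgeR adjusted p = 0.031). Tagln had no count in 5 of the 9 sorted libraries, and its call was lost when any of 4 libraries was left out (replicates 2 and 3 of sorted D6 Sox1+FoxA2-, replicate 3 of sorted and of progeny D6 Sox1+FoxA2+), with an adjusted p of up to 0.0676. Its difference was 5.86, 5.84 and 4.56 without replicate 1 of the sorted D6 gates Sox1-FoxA2+, Sox1+FoxA2- and Sox1+FoxA2+ in turn. That of Cnn1 was 5.08 without replicate 1 of sorted D6 Sox1-FoxA2+ cells and 4.12 without replicate 3 of Sox1+FoxA2-, and that of Actg2 was 5.10 without replicate 3 of Sox1-FoxA2+ and 3.68 without replicate 1 of Sox1+FoxA2+. Ankrd1 had 1.63, 6.21 and 68.4 CPM in progeny and 0.204, 1.86 and 67.9 in sorted cells, and its log2 difference was 1.00 (SE 0.72, edgeR adjusted p = 0.387). The 67.9 CPM belong to replicate 3 of sorted D6 Sox1-FoxA2+ cells, and without that library the difference was 2.39 (edgeR adjusted p = 0.0305).

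Within the gates, the difference between progeny and sorted cells was positive for all 9 genes in each of the 3 gates on both days. On D4 the 3 progeny and 3 sorted libraries did not overlap for 8 of the 9 genes in each gate, and on D6 for 7 genes in Sox1-FoxA2+, 9 in Sox1+FoxA2- and 6 in Sox1+FoxA2+. The share of all genes without overlap was not counted within gates, so these counts have no background. Between progeny of the single-positive gates, also 3 against 3 libraries, 5.57% of all genes tested lay wholly lower on D4 and 12% on D6. The median log2 difference of the 9 genes was 2.89, 3.05 and 3.10 on D4 in Sox1-FoxA2+, Sox1+FoxA2- and Sox1+FoxA2+, and 4.40, 4.52 and 2.24 on D6. Acta2 showed the spread between gates on D4, with 3.19 (SE 0.85) in Sox1-FoxA2+, 6.25 (SE 0.98) in Sox1+FoxA2- and 5.06 (SE 0.93) in Sox1+FoxA2+. Actg2 spread further, from 6.49 (SE 1.33) in Sox1-FoxA2+, where the sorted cells were at 0.107, 0.153 and 0.13 CPM, to 0.35 (SE 1.03) in Sox1+FoxA2+. Tpm2 on D6 was steeper in Sox1-FoxA2+, with 4.67 (SE 0.54), than in Sox1+FoxA2-, with 3.01 (SE 0.50), as sorted D6 Sox1-FoxA2+ cells had the lowest mean of Tpm2 of all conditions, at 5.0, 7.89 and 1.1 CPM. That gate difference did not pass the test described next (1.66, SE 0.66, edgeR adjusted p = 0.389).

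**Figure D2:**
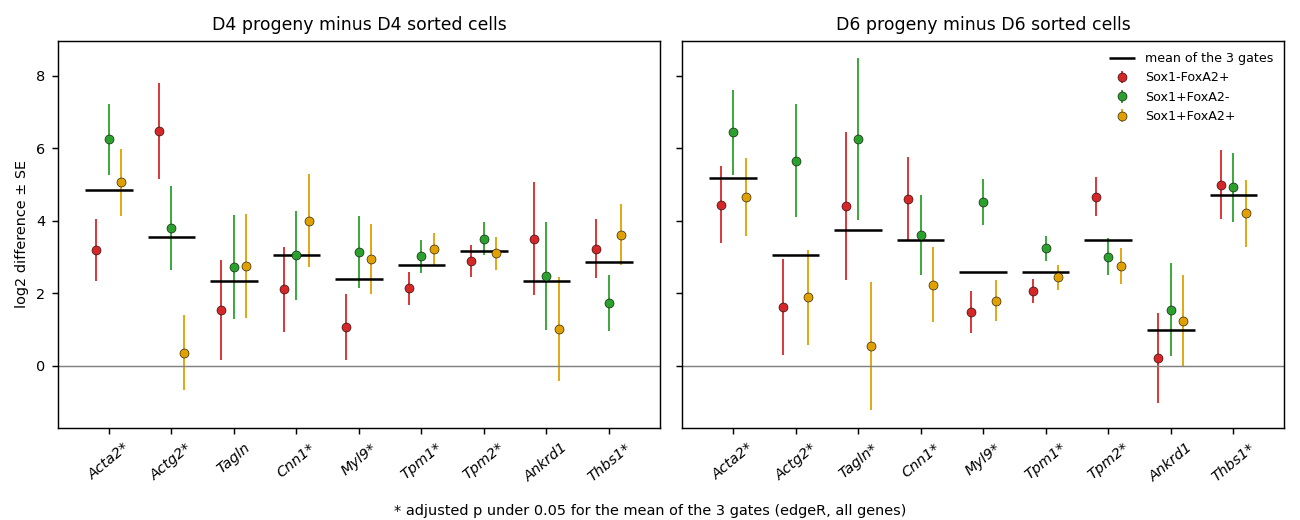
Log2 difference between progeny and sorted cells (vertical axis, points with SE bars) for each of the 9 genes in each of the 3 gates, on D4 and D6, with a black bar at the mean over gates and an asterisk where that mean was called. All points lie above 0, and the bars of Tpm1 and Tpm2 are the narrowest.

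Whether the change to progeny itself differs between the Sox1-FoxA2+ and Sox1+FoxA2- gates was tested as an interaction. On D4, 0 of the 9 genes passed in edgeR's quasi-likelihood test, as did 0 of all 24857 genes, with 1 of the 9 genes and 1189 of all genes at an unadjusted p below 0.05, and DESeq2 called 0 of the 9. On D6, 0 of the 9 passed beside 0.0196% of all genes, with 4 of the 9 genes and 2795 of all genes (11%) at an unadjusted p below 0.05 by edgeR, and DESeq2 called 1 of the 9 and 1021 of all genes. Of the 9, Myl9 had the smallest p on D6, and its change was smaller in Sox1-FoxA2+ by 3.04 on the log2 scale (-3.04, SE 0.80, edgeR adjusted p = 0.238). The SE of the 9 interaction estimates ran up to 2.57 on D6, so gate differences of several log2 units in the less abundant genes could not be detected.

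Progeny of the gates were then compared with each other. On D6, 7 of the 9 genes were lower in Sox1-FoxA2+ than in Sox1+FoxA2- progeny, against 2.72% of the 24025 genes tested called lower, and Ankrd1 was higher, against 2.99% called higher. Thbs1 did not pass. The median log2 difference of the 9 genes was -2.15, and that of all genes tested 0.00. Progeny were not sorted again, and in bulk samples fewer cells of a type and less RNA per cell cannot be told apart.

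Myl9 showed the sharpest separation. Its 3 D6 libraries had 155, 131 and 132 CPM in Sox1+FoxA2- progeny, 12.9, 13.6 and 13.0 in Sox1-FoxA2+ progeny and 61.1, 36.6 and 56.7 in Sox1+FoxA2+ progeny. The 3 gates did not overlap, with the Sox1+FoxA2+ progeny between the others, and Myl9 fell by 3.40 on the log2 scale between the single-positive gates (SE 0.35, edgeR adjusted p = 8.75e-07).

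Acta2 had the same order. It had 1629.9, 1332 and 1265 CPM in D6 Sox1+FoxA2- progeny, 68.8, 176 and 274 in Sox1-FoxA2+ and 426, 178 and 515 in Sox1+FoxA2+. The Sox1+FoxA2+ progeny lay between but overlapped the Sox1-FoxA2+ progeny through replicate 2, and the difference between the single-positive gates was -2.99 (SE 0.45, edgeR adjusted p = 6.78e-05).

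Actg2 had 89.5, 68.8 and 61.9 CPM in D6 Sox1+FoxA2- progeny but 0.45, 5.73 and 6.51 in Sox1-FoxA2+ progeny. This was the largest difference of the 9 genes, -4.08 (SE 0.68, edgeR adjusted p = 0.000228), and in Sox1-FoxA2+ progeny Actg2 overlapped the sorted cells of the same gate, at 0, 0.034 and 3.7 CPM. Cnn1 had 181, 143 and 111 CPM against 25.5, 15.9 and 27.1, a difference of -2.67 (SE 0.40, edgeR adjusted p = 6.78e-05).

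The tropomyosins had the smallest differences of the 7 genes called lower. Tpm1 had 3543, 3326 and 2982 CPM in D6 Sox1+FoxA2- progeny and 1512, 733 and 659.9 in Sox1-FoxA2+, a difference of -1.78 (SE 0.30, edgeR adjusted p = 0.000233). Tpm2 had 459, 483 and 357 CPM against 193, 93.6 and 72.0, a difference of -1.88 (SE 0.34, edgeR adjusted p = 0.000678). Tagln had 22.4, 25.3 and 18.7 CPM against 7.0, 3.59 and 4.47, a difference of -2.15 (SE 0.59, edgeR adjusted p = 0.0281), and its call held in only 1 of the 6 fits that leave out 1 library of these gates, with an adjusted p of up to 0.143.

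Ankrd1 ran the other way, with 4.74, 6.21 and 2.07 CPM in D6 Sox1+FoxA2- progeny and 68.4, 14.3 and 10.7 in Sox1-FoxA2+. It was higher by 2.78 (SE 0.77, edgeR adjusted p = 0.0276). The call rested on few libraries: it was lost without replicate 1 of the Sox1-FoxA2+ progeny, where the difference was 1.54 (edgeR adjusted p = 0.353), and without replicate 1 or 3 of the Sox1+FoxA2- progeny. Thbs1 had 876, 766 and 203 CPM against 782, 171 and 176, so that each gate held both high and low libraries, and its difference was -0.74 (SE 0.56, edgeR adjusted p = 0.634). All 7 genes called lower, and Ankrd1, had no overlap between the single-positive gates, but 12% of all genes tested lay wholly lower and 11.2% wholly higher. When all 57 libraries shared 1 fit, only Tpm1 and Tpm2 of these 8 genes were called, with adjusted p of the other 6 from 0.325 to 0.962.

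**Figure D3:**
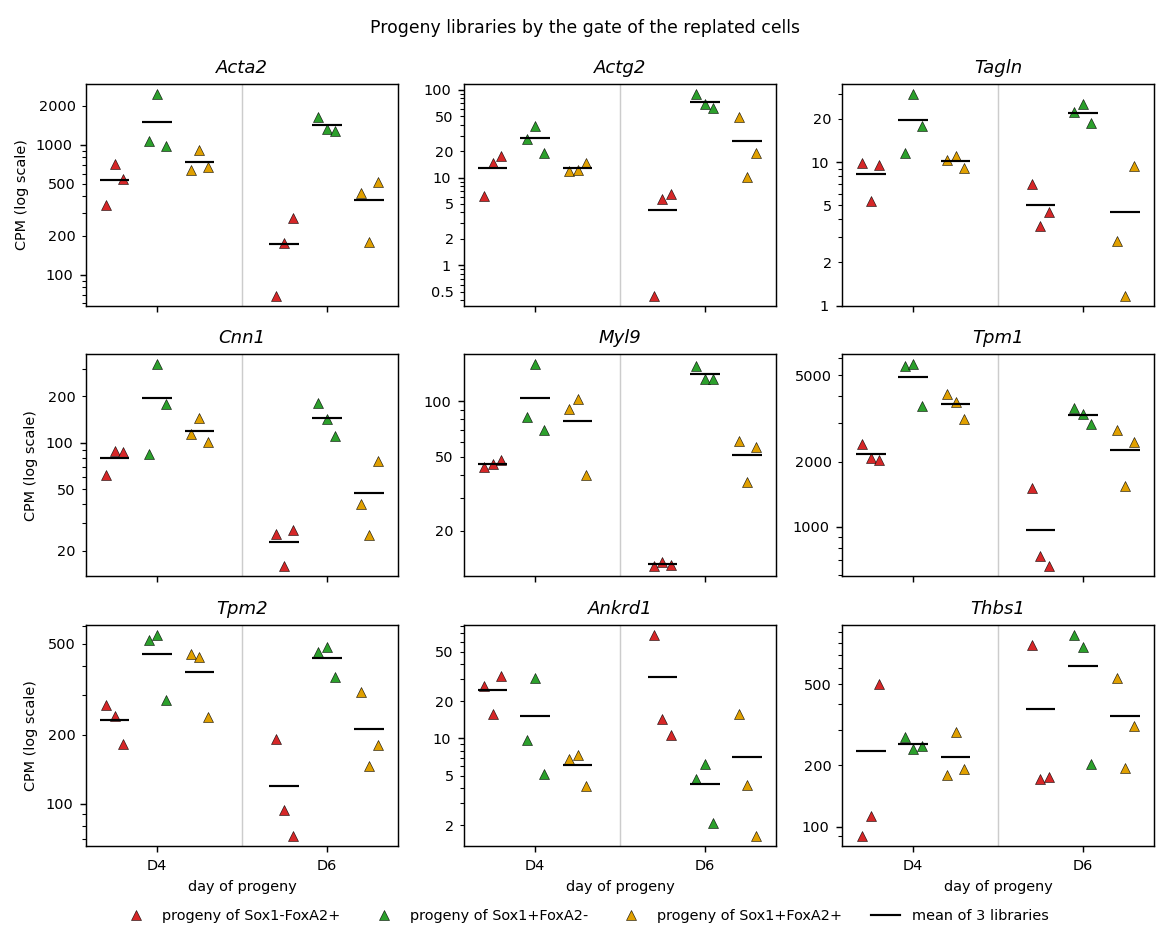
Level of each of the 9 genes in the 18 progeny libraries (CPM on a logarithmic axis, 1 point per library), by gate of origin on D4 and D6. On D6, 7 genes have all 3 Sox1-FoxA2+ libraries below all 3 Sox1+FoxA2- libraries, Ankrd1 has them above, and Thbs1 overlaps.

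On D4 the same contrast was closer to 0 for each of the 7 genes that were lower on D6, a difference between days that was not tested. Tpm1 and Myl9 were lower in Sox1-FoxA2+ progeny, 2 of the 9 genes against 0.454% of all genes tested called lower, and 0 of the 9 were called higher by edgeR beside 1.37% of all genes, where all 6 of the 9 at an unadjusted p below 0.05 were lower and DESeq2 called 0 higher. Tpm1 had 2405, 2075 and 2033 CPM in Sox1-FoxA2+ and 5524, 5613 and 3604 in Sox1+FoxA2- progeny, a difference of -1.23 (SE 0.29, edgeR adjusted p = 0.0228). Myl9 had 44.3, 45.5 and 48.3 CPM against 82.3, 158 and 70.2, a difference of -1.22 (SE 0.32, edgeR adjusted p = 0.0487). Each call was lost in 4 of the 6 fits that leave out 1 library of these gates, with adjusted p of up to 0.1065 for Tpm1 and 0.484 for Myl9, and both were lost when all 57 libraries shared 1 fit. Same-numbered libraries of these gates deviated together, and with the replicate number as a block 3 of the 9 genes were called. Tpm1 kept its call (edgeR adjusted p = 0.00565), Myl9 lost it (edgeR adjusted p = 0.0528), and Acta2 (-1.55, edgeR adjusted p = 0.0458) and Tpm2 (-0.98, edgeR adjusted p = 0.0314) gained one.

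Acta2, with 344, 714 and 548 CPM in D4 Sox1-FoxA2+ progeny against 1064, 2460.4 and 981, did not overlap either but missed the threshold at -1.54 (SE 0.42, edgeR adjusted p = 0.0616). In all, 6 of the 9 genes (Acta2, Actg2, Tagln, Myl9, Tpm1 and Tpm2) lay wholly lower in D4 Sox1-FoxA2+ progeny, as did 5.57% of all genes tested. Cnn1 overlapped through replicate 1 of the Sox1+FoxA2- progeny, whose 84.1 CPM lay beside 323 and 179.7, and without that library its difference was -1.66 (edgeR adjusted p = 0.00888), while Acta2 then also passed. Ankrd1 was at 26.2, 15.8 and 32.1 CPM in Sox1-FoxA2+ and 9.8, 30.4 and 5.22 in Sox1+FoxA2- progeny, and the groups overlapped.

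Between D4 and D6 of the replated culture, Cnn1 and Tpm1 fell over the 3 gates, 2 of the 9 genes against 0.895% of all genes tested called lower. Cnn1 ranged over 61.6, 101 and 323 CPM (lowest, median and highest of 9) on D4 and 15.9, 39.8 and 181 on D6, with a log2 difference of -1.20 (SE 0.22, edgeR adjusted p = 0.00285). Tpm1 had a median of 3604 CPM on D4 and 2468 on D6, with a log2 difference of -0.83 (SE 0.17, edgeR adjusted p = 0.00709). Both pairs of ranges overlapped, and both calls were lost when all 57 libraries shared 1 fit.

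Of the 7 genes that did not pass, Acta2 had -0.89 (SE 0.24, edgeR adjusted p = 0.0521), Myl9 -0.66 (adjusted p = 0.0618) and Tpm2 -0.63 (adjusted p = 0.0987). Tagln (-0.59) and Ankrd1 (-0.43) were also negative, and Actg2 (0.27) and Thbs1 (0.84, SE 0.33, edgeR adjusted p = 0.222) positive. Some of these values average gates whose means moved in opposite directions. Actg2 went from 28.4 to 73.4 CPM in Sox1+FoxA2- and from 13.0 to 26.1 in Sox1+FoxA2+, but from 12.8 to 4.23 in Sox1-FoxA2+. Myl9 went from 104 to 140 CPM in Sox1+FoxA2-, but from 78.0 to 51.5 in Sox1+FoxA2+ and from 46.0 to 13.2 in Sox1-FoxA2+. Several calls among these 7 genes turned on 1 progeny library. Acta2 was called in 5, Tpm2 in 3, Myl9 in 2 and Thbs1 in 1 of the 18 fits that leave out 1 library, Thbs1 without replicate 3 of D4 Sox1-FoxA2+ progeny, whose 500.1 CPM lay beside 89.7 and 114.

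In sorted cells, which stayed in serum-free medium, 4 of the 9 genes rose from D2 to D6 in the mean over the 4 gates. These were Acta2, Tagln, Tpm1 and Ankrd1, against 6.69% of the 28237 genes tested called higher. For Tagln and Tpm1 not every gate moved in this direction. Acta2 was nearly undetected on D2, at 0, 0.137 and 2.39 CPM (lowest, median and highest of 12 libraries), with 5 libraries at or below 3 counts, and reached 0, 12.3 and 93.7 CPM on D6 (log2 difference 6.27, SE 0.91, edgeR adjusted p = 3.02e-05), or 7.38 without replicate 1 of D2 Sox1+FoxA2- cells. On D4 it was at 0.953, 24.1 and 131 CPM. The sorted cells therefore reached at most 131 CPM for Acta2, below the lowest D4 progeny library (344 CPM) and below all but 1 of the D6 progeny libraries (68.8 CPM).

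Ankrd1 and Tagln each had 10 of the 12 D2 libraries at or below 3 counts, so no fold change is given for them. Ankrd1 went from at most 0.285 CPM on D2 to 0, 1.45 and 67.9 CPM on D6 (edgeR adjusted p = 0.00199), and Tagln from at most 1.1 CPM to 0, 0.721 and 8.92 (edgeR adjusted p = 0.0266). In Sox1+FoxA2- cells the mean of Tagln went from 0.616 to 0.251 CPM, while it was higher on D6 in the other gates. Tpm1 rose only from 109, 205 and 394 CPM to 177, 304 and 853, a log2 difference of 0.70 (SE 0.22, edgeR adjusted p = 0.0357). Its mean went from 134 to 596 CPM in Sox1-FoxA2-, from 203 to 310 in Sox1+FoxA2- and from 324 to 387 in Sox1+FoxA2+. In Sox1-FoxA2+ it went from 288 to 224 CPM. The calls of Acta2 and Ankrd1 held in all 24 fits that leave out 1 library, that of Tagln in 12 and that of Tpm1 in 14. The other 5 genes did not pass, with log2 differences from -0.33 (Actg2) to 1.06 (Thbs1).

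Between D0 and D2 in Sox1-FoxA2- cells, 0 of the 9 genes passed in edgeR's quasi-likelihood test, beside 0.425% of all genes tested. None of the 9 had an unadjusted p below 0.05, where 9.56% of all genes did, and DESeq2 called 1 of the 9, Ankrd1, which had no count in any D0 library. The D0 cells grew with serum and LIF, and there Acta2 was at 0.0776, 0.246 and 2.19 CPM, Ankrd1 and Tagln at 0 in all 3 libraries, Thbs1 at 0.0776, 7.72 and 11.7 and Tpm1 at 146, 260.5 and 148. For all 5 of these genes the highest D0 library lay below the lowest D4 progeny library. Against D4 progeny, Actg2 was the exception among the 9, since 1 D0 library had 17.8 CPM and lay within the D4 progeny range. The other 2 were at 0 and 0.0411. Cnn1 overlapped D6 progeny as well, with up to 29.3 CPM in D0 cells and 15.9 to 181 in D6 progeny. The share of all genes without overlap between D0 cells and progeny was not counted.

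Other genes of the same systems were counted by lists, with up to 4 named per list by a rule of size. Of 11 other smooth muscle contractile genes tested, 8 were higher and 1 lower in D4 progeny and 7 were higher and 1 lower on D6, with median log2 differences of 1.57 and 1.87. Myh11, the smooth muscle myosin heavy chain, differed by 3.27 and Lmod1, an actin nucleator of smooth muscle, by 2.72 on D4, and Cald1, caldesmon, by 2.78 on D6. The gene that fell was Mylk, myosin light chain kinase, at -2.22 on D4 and -2.30 on D6. Of 12 paralogs of the 9 genes tested, 7 were higher on both days, led by Cnn2 (calponin 2, 2.57 and 2.48) and Tpm4 (tropomyosin 4, 1.98 and 1.14). The median log2 differences of the paralogs were 0.80 and 0.72, beside 2.86 and 3.48 for the 9 genes.

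Of 18 genes of focal adhesions and stress fibres that are known SRF targets, 17 were higher on D4 and 16 on D6, with medians of 1.51 and 1.44. Zyx, zyxin, differed by 2.87 and 2.31. Of 8 SRF cofactors and relatives tested, 2 were higher on each day, Myocd (1.59) and Fhl2 (1.55) on D4 and Fhl2 (1.28) and Mrtfa (0.91) on D6. Of 13 immediate early genes of the serum response, 4 were higher on D4 and 5 on D6, among them Junb with 2.51 and 2.23.

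Of 22 YAP and TEAD targets, 10 were higher on D4 and 12 on D6, with medians of 1.09 and 1.15. Axl, a receptor kinase, differed by 3.41 and 3.19 and Ccn1, a matricellular protein, by 2.81 on D6. Of the 7 genes for YAP, TAZ and the TEAD factors themselves, 3 were higher on each day, with Tead3 at 1.81 and 1.47. Of 15 ligands, receptors and targets of TGF-beta, 4 were higher on D4 and 6 on D6, among them Ltbp1, which binds latent TGF-beta in the matrix, with 1.54 and 1.94. In these lists other than that of the contractile genes, edgeR and, but for 1 gene of the YAP, TAZ and TEAD list on D6, DESeq2 called 0 genes lower, and that gene was also the only one lower at an unadjusted p below 0.05 by edgeR. Cnn2, Fhl2, Pdlim7, Myocd and Tgfb2 each stood in 2 of these lists.

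**Figure D4:**
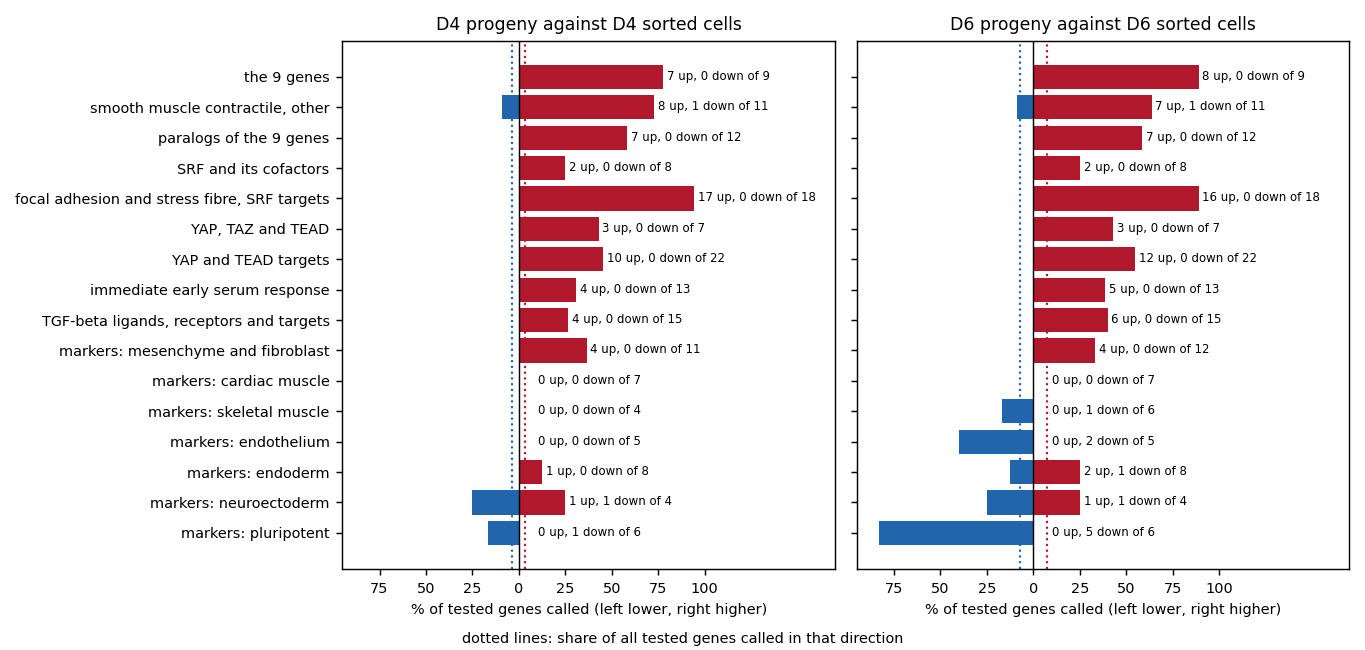
Percent of the tested genes of each list called higher (to the right) or lower (to the left) in progeny than in sorted cells, on D4 and D6, with dotted lines at the percent of all genes called in that direction. The 9 genes and the focal adhesion and stress fibre list stand farthest to the right, and the lists of cardiac, skeletal, endothelial and pluripotency markers have none called higher.

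Summed markers of smooth muscle and of mesenchyme, cell types that could carry the 9 genes, had higher medians in progeny than in sorted cells. So did those of neuroectoderm, with medians of 437 CPM against 116 on D4 and 306 against 81.4 on D6. Only 2 of these 7 markers had a mean of at least 1 CPM in progeny on either day, so the sum describes few genes. The median log2 difference of the 4 neuroectoderm markers tested was -2.24 on D4 and -1.64 on D6. Endoderm markers had medians of 771 against 410 on D4 and 3894 against 712 on D6. Unless a gate is named, sorted sums here and below cover all 4 gates, among them Sox1-FoxA2-, which has no progeny. Within gates, the D6 endoderm medians of progeny and sorted cells were 3894 and 3914 in Sox1+FoxA2+. They were 29574 and 16547 in Sox1-FoxA2+ and 1343 and 220 in Sox1+FoxA2-. On D4 they were 771 and 426, 8817 and 13436, and 411 and 214 in the same order of gates. A set of 6 smooth muscle markers (Myh11, Smtn, Lmod1, Myocd, Des and Cnn1) summed to 352 to 899.8 CPM in D4 progeny and 197 to 955 in D6 progeny, against 58.0 to 144 and 42.2 to 176 in sorted cells of D4 and D6. Cnn1 is one of the 9 genes, so this sum is not separate from them, and Mylk, which fell, is not in the set. None of the 6 was at 0 in all libraries of either group. The 12 mesenchyme and fibroblast markers summed to 331 to 1349 and 383 to 2391 CPM in D4 and D6 progeny, against 12.004 to 382 and 50.3 to 749 in sorted cells. Within the Sox1-FoxA2+ gate these sums overlapped, at 331 to 631 in progeny against 220 to 382 on D4 and 383 to 989 against 244 to 749 on D6. They did not overlap within the Sox1+FoxA2- or Sox1+FoxA2+ gate. Of the 12 markers, 4 were called higher on each day, the collagens Col1a1 (5.02 and 5.53), Col3a1 (6.55 and 4.58) and Col1a2 (2.42 and 2.61) and the receptor Pdgfra (2.51 and 1.63).

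Cardiac markers had 0 of 7 called on either day by edgeR, with 1 at an unadjusted p below 0.05 on each day and, by DESeq2, 0 called on D4 and 1 lower on D6. Their summed levels were 21.4 to 53.6 CPM in D4 progeny against 12.8 to 50.2 in sorted cells. Skeletal muscle and endothelial markers had 0 called higher by edgeR or DESeq2 on either day, also at an unadjusted p below 0.05. On D6, 1 of 6 skeletal muscle and 2 of 5 endothelial markers tested were lower by edgeR, and 2 of each by DESeq2, while on D4 0 were lower by edgeR, with 1 of each at an unadjusted p below 0.05, and DESeq2 called 1 endothelial marker lower. Acta1, the skeletal actin, and Actc1, the cardiac actin, were listed at 0 in every library, where their spans are shared with other genes. Of 8 endoderm markers, 1 was higher on D4, and on D6 2 were higher and 1 lower, and of 4 neuroectoderm markers tested 1 was higher and 1 lower on both days. Of 6 pluripotency markers, 1 was lower on D4 and 5 on D6. How far the cell types of a library account for the levels of the 9 genes was not tested.

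Marker sums were also compared between progeny of the single-positive gates on D6. The set of smooth muscle markers summed to 549 to 955 CPM in Sox1+FoxA2- and 197 to 237 in Sox1-FoxA2+ progeny. The mesenchyme markers summed to 818 to 2391 and 383 to 989, and these ranges overlapped. Of 11 mesenchyme markers tested, 8 were called lower and 1 higher by edgeR in Sox1-FoxA2+ progeny. Of the 11 other smooth muscle genes, 4 were lower in Sox1-FoxA2+ progeny, Myh11 (-3.34), Des (-2.82), Lmod1 (-1.97) and Pdlim7 (-1.19), as the 7 of the 9 genes were. Of 22 YAP and TEAD targets, 6 were higher and 3 lower, with Ccn2 (3.58) and F3 (2.82) higher, as Ankrd1 was, and Axl (-2.62) and Rbms3 (-2.53) lower. The 8 endoderm markers had 7 called higher in Sox1-FoxA2+ progeny, where they summed to 16966 to 34630.1 CPM against 564 to 1602. The part of these differences in cell types in the levels of the 9 genes was not tested.

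Across the 19 condition means of log2(CPM + 1), the 9 genes followed a shared pattern to different degrees. Pearson's r of a gene with the mean of the other 8 was 0.976 for Tpm1, 0.959 for Acta2, 0.95 for Cnn1, 0.947 for Tagln, 0.941 for Myl9, 0.933 for Thbs1 and 0.903 for Tpm2. It was lower for Actg2, with 0.798, and Ankrd1, with 0.728, and the lowest pair was Actg2 with Ankrd1, at 0.535. The 6 progeny conditions stand apart from the 13 sorted ones in most of the genes, so these values mostly describe that separation. Among the 9817 genes with a mean of at least 10 CPM, the 5 outside the 9 genes that were most like their mean were Lmod1 (0.966), Rnd3 (0.954), Cald1 (0.953), Col1a1 (0.951) and Fosl2 (0.944). Lmod1 went from a mean of 10.52 CPM in sorted to 87.7 in progeny libraries and Cald1 from 230.3 to 1849.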

How the data were processed

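Per the labels and the study's methods, the SMART-Seq Stranded kit turned RNA of sorted or replated cells into libraries. The authors then aligned reads with STAR, handled them with SAMtools and counted them per gene with featureCounts against GENCODE M21; versions are not given in the sources used here. The authors deposited 1 table of raw counts per gene, not normalized, for 57 libraries. Its 92 lines that name no gene held 0 counts and did not enter the fits. No pair of libraries had the same counts throughout. All 13127 genes whose whole span lies within other genes, 6263 of them only on the other strand, had 0 counts in every library, while 89.115% of the 42323 other genes had a count, and 85.967% of the values from 1 to 200 were even. The values therefore behave as counts over gene spans, with both mates counted and overlaps dropped, which lowers Tagln.

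Counts were tested with edgeR 4.0.16 (quasi-likelihood, TMM, default filterByExpr, 1 coefficient per condition, two-sided) in R 4.3.3, separately in the 18 libraries of D4, the 18 of D6, the 18 of progeny and the 39 of sorted cells, with Benjamini-Hochberg adjustment over all genes tested and a threshold of 0.05. SE is the log2 difference divided by the root of F. Alternatives were DESeq2 1.42.0, RLE size factors, no filter, all 57 libraries in 1 fit, an additive fit, a replicate block, and leaving out each library. In the fit of 39 sorted libraries the latter kept the trend and filter of all libraries. Scripts were tested on simulated data. Intervals at 3 counts cover counting error only.

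The 9 genes and the gene lists were chosen with earlier results of these data known. All 9 genes are named in each comparison, and of each list at most the 2 largest and 2 smallest differences among called genes. The result of 1 gene of a list is not reported here. The genes most alike are the 5 with the highest Pearson r over 19 conditions among genes with a mean of at least 10 CPM. The main fits had no replicate block. Deviations of same-numbered libraries correlated over 0.1 in all 3 numbers between the D4 Sox1-FoxA2+ and Sox1+FoxA2- progeny (0.562, 0.509 and 0.324). They also did between D2 and D6 sorted Sox1-FoxA2- cells (0.190 to 0.367), 1 of the 4 gates of that comparison. They did not between progeny and sorted cells (-0.329 to 0.422), D4 and D6 progeny (-0.272 to 0.122), the D6 progeny gates (0.0983 to 0.473) or D0 and D2 (-0.149 to 0.0567). Any pairing is read from these correlations, not from the labels. Depth also went with the number in the D4 progeny of these 2 gates. It was 10170632 and 11189529 counts in replicate 1 and 73126473 and 81845651 in replicate 3. Whether shared cultures or depth lie behind the correlations was not tested.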

Additional observations from a re-analysis of the deposited data

How the results depend on the processing

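In D4 progeny against sorted cells 7 genes were called in the main analysis and 7 to 9 when 1 library was left out (1125 to 2092 genes in all), and on D6 8 and 7 to 9 (2396 to 5258 in all). DESeq2 called 3907 genes in all where edgeR called 1743 on D4, and 6152 where edgeR called 3570 on D6. Tagln and Ankrd1 were called on D4 without a filter and by DESeq2, and Tagln lost its D6 call in the additive fit (adjusted p = 0.0798). These alternatives changed no other call of the 9 genes in the 2 comparisons.

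The gate difference of the change had 0 of the 9 genes called on D4, 1 without a filter, and 0 on D6, 2 without a filter and 1 by DESeq2. Over all genes it had 0 calls on D4, 38 without a filter and 284 by DESeq2, and 5 on D6, 2 with 57 libraries, 188 without a filter and 1021 by DESeq2. Leaving out 1 library gave 0 of the 9 genes on both days and 0 to 4 and 2 to 15 genes in all.

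From D4 to D6 of the progeny, 2 of the 9 genes were called, 0 with 57 libraries, 4 with the replicate block, 6 without a filter, 5 by DESeq2 and 2 to 5 with 1 library left out; over all genes the counts were 479, 51 with 57 libraries, 1006 without a filter, 1073 by DESeq2 and 303 to 585. Between the gates of D4 progeny, 2 genes were called, 0 with 57 libraries, 5 without a filter, 1 with RLE size factors, 4 by DESeq2 and 0 to 3 with 1 library left out; over all genes 439, 65 with 57 libraries, 803 without a filter, 904 by DESeq2 and 260 to 533. Between the gates of D6 progeny, 8 were called, 2 with 57 libraries and 6 to 7 with 1 library left out; over all genes 1371, 285 with 57 libraries and 897 to 1280.

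From D2 to D6 of sorted cells, 4 genes were called and 2 to 4 with 1 library left out; over all genes 2685, 4186 with 57 libraries, 6595 by DESeq2 and 1146 to 3529. From D0 to D2, 0 genes were called, 1 by DESeq2 and 0 with 1 library left out; over all genes 120, 247 with 57 libraries, 274 with the block, 476 without a filter, 3119 by DESeq2 and 52 to 167. With the replicate block, Acta2 and Tpm2 gained a call from D4 to D6, where same-numbered libraries did not deviate together. They also gained one between the gates of D4 progeny, where such libraries did. Myl9 lost its call between those gates (edgeR adjusted p = 0.0528). The block changed no other call of the 9 genes. The causes of these differences were not tested.

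Signs turned only in differences that were not called. The gate difference of Thbs1 on D6, 0.07, was -0.030 with 57 libraries and -1.06 to 1.41 with 1 library left out, and the D0 to D2 difference of Thbs1, 0.58, was -0.25 with the replicate block. With 1 library left out, the gate difference ran from -0.067 to 2.05 for Ankrd1 on D4 and, on D6, from -8.17 to 4.18 for Tagln, -0.92 to 5.51 for Cnn1, -4.62 to 2.11 for Actg2 and -2.59 to 2.84 for Ankrd1. The D4 to D6 difference of Actg2 ran from -0.0050 to 0.45, that of Thbs1 between the gates of D4 progeny from -1.41 to 0.23, and the D2 to D6 differences of Cnn1 from -0.066 to 1.72 and of Actg2 from -1.83 to 0.087. From D0 to D2, Tagln ran from 0.00 to 2.97, Tpm2 from -0.72 to 0.25 and Actg2 from -3.15 to 5.74. With CPM not scaled by TMM, 161 of the 171 condition means stayed within 1 SD.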
